A study of Mus musculus with 14 samples.

Results

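A group of 9 genes of hyaluronan metabolism was followed in whole mouse ear tissue: the synthases Has1, Has2 and Has3, the binding proteins Tnfaip6, Ptx3 and Vcan, the receptor Cd44, and the hyaluronidases Hyal1 and Hyal2. They were chosen by gene symbol from the 24035 genes of the deposited table, all 9 were found, and the choice was made with earlier results of these data known. The p-values below come from a fit over all tested genes and say nothing in favour of this choice of genes. Hyaluronan is a long unsulfated sugar chain that the synthases build at the plasma membrane from UDP-glucuronic acid and UDP-N-acetylglucosamine and push out into the extracellular space. In skin it fills the dermal matrix and the spaces between keratinocytes, where it holds water, is bound and cross-linked by proteins such as versican and TSG-6 (the product of Tnfaip6), is sensed through CD44, and is cut by hyaluronidases. Its synthesis and cross-linking are known to change when skin is irritated or wounded.

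The series compared 2 genotypes of mice without Langerhans cells, a kind of dendritic cell that lives in the epidermis, under 2 treatments of the ear. There were 4 LC-DTA croton oil, 3 LC-DTA vehicle, 4 LC-DTR croton oil and 3 LC-DTR vehicle samples. LC-DTA mice lacked Langerhans cells long term. LC-DTR mice, vehicle samples included, had received diphtheria toxin (DT) 3 days before and so had lost these cells recently. Each ear was treated on both surfaces with 20 µl of 1% croton oil, an irritant plant oil that holds phorbol esters, or with its vehicle (acetone and olive oil, 4 to 1), and collected after 6 h. No sample with intact Langerhans cells and no unpainted ear was analysed here. The sources used here give neither the promoter that drives each transgene, nor the age and sex of the mice, nor whether LC-DTA mice received toxin, so genotype, toxin and the duration of ablation cannot be told apart. Nothing in the labels says that replicates are separate animals, and p-values therefore measure no more than the spread between these samples.

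Values are TPM (transcripts per 1e+06 transcripts), which are scaled to gene length and to a fixed total in each sample and keep no sequencing depth. Cd207, the defining lectin gene of Langerhans cells, averaged 0.529 TPM in LC-DTA croton oil, 0.290 in LC-DTA vehicle, 1.18 in LC-DTR croton oil and 0.259 in LC-DTR vehicle ears. Epcam, the other marker listed for these cells, averaged 474 TPM in LC-DTA croton oil and 214 in LC-DTA vehicle ears. In LC-DTR it averaged 531 TPM after croton oil and 221 under vehicle. The part of Langerhans cells in the Epcam values was not tested. Skin markers were present in every group, with summed TPM of 4 keratinocyte keratins between 16600 and 35840. Samples 2 and 3 of the LC-DTR croton oil group scored 5.26 and 8.06 on the leading principal component (50.5% of the variance), and samples 1 and 4 of that group 28.5 and 28.6. Values without samples 2 and 3 are given in each comparison that uses them. In whole tissue, fewer cells of a type and less RNA per cell cannot be told apart. All 9 genes passed the filter of at least 1 TPM in at least 3 samples. Has3 reached 1 TPM in 12 samples, Has1 in 13 and each of the others in 14.

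Promoter sequence was at hand for 7 of the 9 genes, all but Has2 and Has3, in the RefSeq-derived table for GRCm38.p6. The runs shown are those of the genes that rose after croton oil in both genotypes and had a sequence: 1 synthase, 2 hyaluronan-binding proteins and the receptor. Each lies within the 250 bases upstream of the RefSeq start site, 5′ to 3′ on the strand of the gene, and stops before any base that GENCODE M21 places inside the gene. Capitals mark matches to the motifs searched. The positions are chr17:17855206-17855438, minus strand, for Has1, chr2:52037863-52038008, plus strand, for Tnfaip6, chr3:66219637-66219886, plus strand, for Ptx3 and chr2:102901666-102901915, minus strand, for Cd44.
Has1: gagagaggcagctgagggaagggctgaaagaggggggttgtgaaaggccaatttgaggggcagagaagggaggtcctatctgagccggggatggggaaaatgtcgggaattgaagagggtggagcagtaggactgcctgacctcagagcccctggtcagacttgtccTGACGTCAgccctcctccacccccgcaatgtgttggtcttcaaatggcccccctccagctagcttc
Tnfaip6: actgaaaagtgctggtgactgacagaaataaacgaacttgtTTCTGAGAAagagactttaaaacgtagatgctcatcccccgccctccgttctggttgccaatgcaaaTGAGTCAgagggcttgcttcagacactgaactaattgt
Ptx3: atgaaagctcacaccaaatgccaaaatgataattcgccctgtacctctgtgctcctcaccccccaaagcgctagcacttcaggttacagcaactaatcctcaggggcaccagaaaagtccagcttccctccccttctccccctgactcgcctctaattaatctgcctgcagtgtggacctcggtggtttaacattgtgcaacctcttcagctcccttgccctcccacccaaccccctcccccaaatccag
Cd44: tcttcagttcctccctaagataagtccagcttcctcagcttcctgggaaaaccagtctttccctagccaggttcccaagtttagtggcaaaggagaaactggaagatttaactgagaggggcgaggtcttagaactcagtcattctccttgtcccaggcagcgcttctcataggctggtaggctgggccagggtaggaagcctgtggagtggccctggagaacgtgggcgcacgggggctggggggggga
Motifs were searched on both strands of the whole 250 bases, and none of the matches overlapped another. Has1 held a cyclic AMP response element (CRE, TGACGTCA) at -83 to -76 from the start site, which 1.55% of all 32851 promoter windows in the table also held. Tnfaip6 held an AP-1 match (TGANTCA, printed as TGAGTCA) at -142 to -136 and a STAT match (TTCNNNGAA) at -209 to -201, found in 6.75% and 7.02% of all windows. Hyal2, whose upstream bases lie inside the GENCODE gene and are not printed, held an NF-kB consensus match at -238 to -229, found in 7.25% of windows. No TATA box (TATAAA) was found in the 7 windows, against 12.4% of all windows, and none of the motifs was found in Ptx3, Cd44, Hyal1 or Vcan. A match or its lack describes the letters of these windows and says nothing about binding of the factor.

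Has3, which makes hyaluronan in keratinocytes among other cells, had the widest range of the 3 synthase genes. It had 33.1, 54.1, 62.5 and 30.5 TPM in the 4 LC-DTA croton oil samples, against 2.54, 2.38 and 1.28 TPM in the LC-DTA vehicle samples. In LC-DTR it had 6.28, 1.58, 4.09 and 6.88 TPM after croton oil and 0.724, 1.13 and 0.699 TPM under vehicle. Every LC-DTA croton oil sample lay above every other sample of the series, and LC-DTR croton oil sample 2 fell within the range of the LC-DTA vehicle samples. The mean was 21.8 times higher after croton oil than under vehicle in LC-DTA and 5.53 times higher in LC-DTR. Has3 lies on chromosome 8 at 106870242-106884566 (GRCm38, plus strand), and 704 bp of it overlap Chtf8 on the other strand. The sources used here do not say whether reads were counted by strand. Chtf8 averaged 112 ± 3.70 TPM in LC-DTA croton oil, 75.4 ± 6.64 in LC-DTA vehicle, 80.6 ± 7.56 in LC-DTR croton oil and 75.3 ± 2.25 in LC-DTR vehicle ears (SD). Both genes thus had their highest mean in LC-DTA croton oil ears, and the part of the overlap in the Has3 values was not tested.

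Has2, the main synthase of dermal fibroblasts in mice, had 17.1, 26.8, 28.5 and 19.4 TPM in LC-DTA croton oil samples, against 4.28, 3.64 and 4.21 TPM under vehicle. The LC-DTR values were 9.10, 4.87, 9.22 and 15.2 TPM after croton oil and 1.86, 1.99 and 1.74 TPM under vehicle. No 2 groups overlapped, and the order ran from LC-DTA croton oil through LC-DTR croton oil and LC-DTA vehicle down to LC-DTR vehicle. Has2os, an antisense gene that overlaps Has2 on chromosome 15 by 4596 bp, averaged between 1.12 and 1.85 TPM in the 4 groups.

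Has1, the third synthase, had 16.5, 13.2, 11.6 and 16.8 TPM in LC-DTA croton oil samples and 2.65, 1.67 and 3.55 TPM under vehicle. LC-DTR ears had 8.60, 6.58, 6.20 and 7.79 TPM after croton oil, against 1.05, 1.13 and 0.540 TPM under vehicle. The 4 groups stood in the same order as for Has2, again without overlap. Has1 lies on chromosome 17 at 17843323-17855205 (minus strand).

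**Figure D1:**
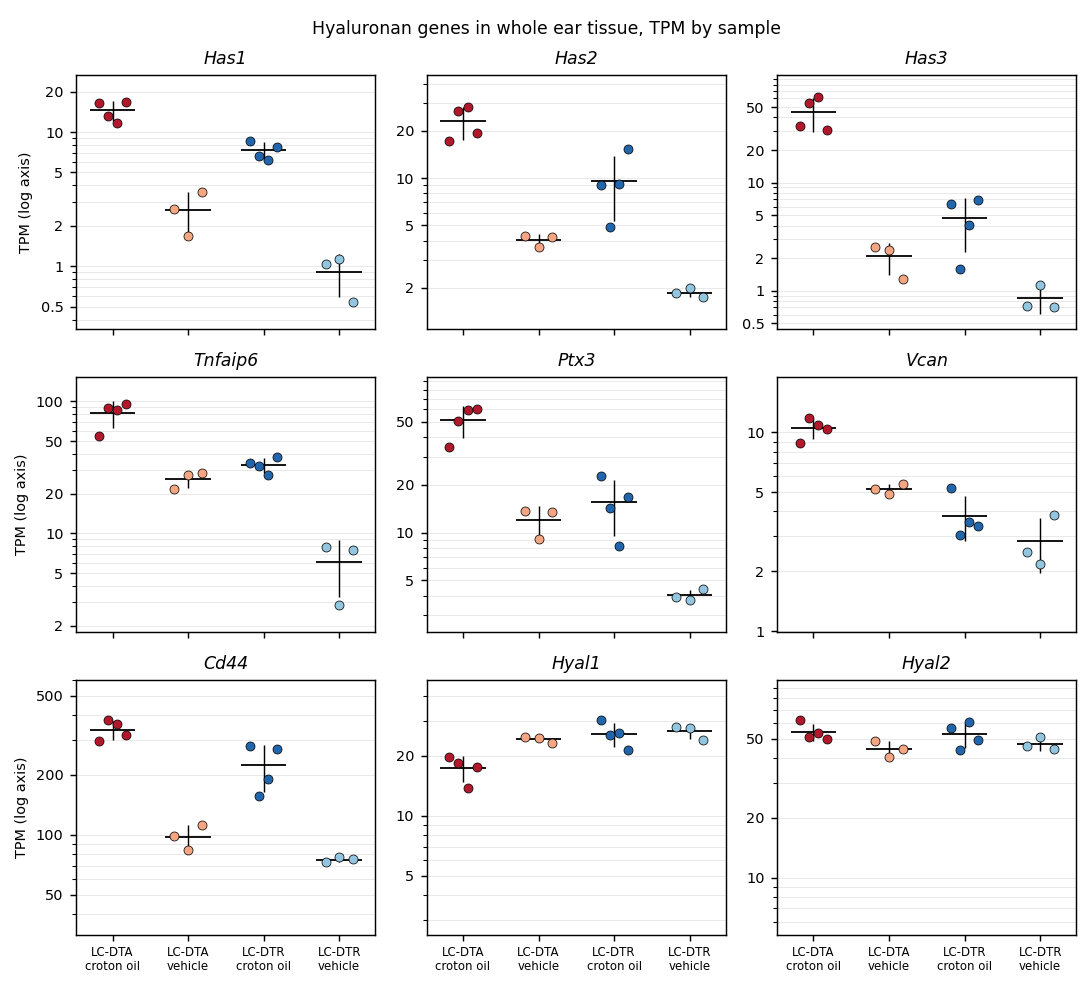
TPM of the 9 genes in each of the 14 samples on log axes, with LC-DTA croton oil, LC-DTA vehicle, LC-DTR croton oil and LC-DTR vehicle from left to right. Points are samples, horizontal bars are means and vertical bars are ± SD. For Has3 the 4 LC-DTA croton oil samples sit between 30.5 and 62.5 TPM and all others at 6.88 TPM or less, while for Hyal2 each group overlaps the next in order of mean.

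The 3 synthases together also changed in make-up, here given as shares of their summed TPM. Has3 took 53.4 ± 6.97% of the sum in LC-DTA croton oil ears (SD, n = 4), against 24.0 ± 8.71% in LC-DTA vehicle (n = 3). In LC-DTR its share was 20.6 ± 6.05% after croton oil (n = 4) and 23.3 ± 3.31% under vehicle (n = 3). The Has3 share was between 45.7 and 60.9% in LC-DTA croton oil samples and at most 30.9% in any other sample. The Has2 share was 27.8 ± 1.48% in LC-DTA croton oil, 46.4 ± 1.09% in LC-DTA vehicle, 43.4 ± 6.78% in LC-DTR croton oil and 52.2 ± 5.87% in LC-DTR vehicle ears. The summed TPM was 82.5 ± 18.6 in LC-DTA croton oil, 8.74 ± 0.929 in LC-DTA vehicle, 21.6 ± 7.13 in LC-DTR croton oil and 3.62 ± 0.638 in LC-DTR vehicle ears. Set against the 2 hyaluronidase genes, the ratio of summed Has TPM to summed Hyal1 and Hyal2 TPM was 1.17 ± 0.327 in LC-DTA croton oil, 0.127 ± 0.00793 in LC-DTA vehicle, 0.278 ± 0.103 in LC-DTR croton oil and 0.0489 ± 0.00521 in LC-DTR vehicle ears. These are transcript ratios, and neither enzyme activity nor hyaluronan was measured.

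**Figure D2:**
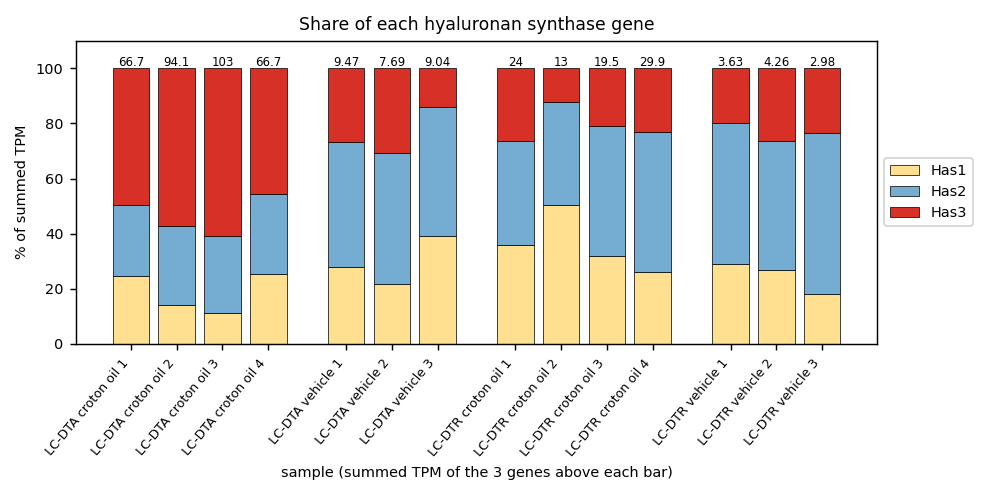
Share of Has1, Has2 and Has3 in their summed TPM (y axis, %) for each sample, with the summed TPM above each bar. Has3 holds 45.7 to 60.9% in the LC-DTA croton oil samples and at most 30.9% elsewhere.

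Tnfaip6 encodes TSG-6, which binds hyaluronan and moves heavy chains of inter-alpha-inhibitor onto it. It had 54.5, 89.3, 86.5 and 95.3 TPM in LC-DTA croton oil samples, against 21.6, 27.7 and 28.6 TPM under vehicle. In LC-DTR it had 33.8, 32.4, 27.6 and 37.8 TPM after croton oil and 7.93, 2.86 and 7.47 TPM under vehicle. LC-DTA vehicle ears thus overlapped LC-DTR croton oil ears in their Tnfaip6 level, and LC-DTR vehicle ears lay below all other samples.

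Ptx3 encodes a long pentraxin of innate immunity that binds TSG-6 and helps to cross-link hyaluronan in the matrix around the mouse oocyte. It had 34.9, 50.7, 59.5 and 59.9 TPM in LC-DTA croton oil samples and 13.7, 9.05 and 13.5 TPM under vehicle. The LC-DTR values were 22.6, 14.2, 8.26 and 16.9 TPM after croton oil, against 3.92, 3.77 and 4.41 TPM under vehicle. As for Tnfaip6, the LC-DTR croton oil and LC-DTA vehicle ranges overlapped.

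Vcan encodes versican, a large chondroitin sulfate proteoglycan that aggregates on hyaluronan. It had 8.85, 11.9, 10.9 and 10.4 TPM in LC-DTA croton oil samples, against 5.22, 4.92 and 5.52 TPM under vehicle. LC-DTR ears had 5.25, 3.06, 3.55 and 3.38 TPM after croton oil and 2.51, 2.17 and 3.82 TPM under vehicle. The LC-DTR groups overlapped each other, and LC-DTR croton oil sample 1 reached the LC-DTA vehicle range.

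Cd44, the principal cell surface receptor of hyaluronan on leukocytes, keratinocytes and fibroblasts, was the most abundant of the 9 transcripts in each group by mean TPM. It had 297, 377, 360 and 318 TPM in LC-DTA croton oil samples and 98.5, 83.9 and 112 TPM under vehicle. In LC-DTR it had 278, 156, 192 and 271 TPM after croton oil, against 72.6, 77.1 and 75.4 TPM under vehicle. No groups overlapped, but LC-DTR croton oil samples 2 and 3 stood well below samples 1 and 4.

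Hyal1, the lysosomal hyaluronidase, had 19.8, 18.4, 13.8 and 17.6 TPM in LC-DTA croton oil samples, against 24.9, 24.7 and 23.3 TPM under vehicle. The LC-DTR values were 30.3, 25.4, 26.1 and 21.5 TPM after croton oil and 28.0, 27.6 and 24.0 TPM under vehicle. The LC-DTA croton oil samples lay below all others, and the other 3 groups overlapped. Hyal1 overlaps 3 other genes in GENCODE M21: Naa80 by 2824 bp and Hyal3 by 893 bp on the same strand, and the antisense gene Gm16343 by 4784 bp. Hyal3 did not exceed 1.59 TPM in any sample. Nat6, which RefSeq lists as an older symbol of Naa80 and also of Hyal1, averaged 22.1 ± 4.11 TPM in LC-DTA croton oil, 40.5 ± 0.632 in LC-DTA vehicle, 31.4 ± 3.48 in LC-DTR croton oil and 37.8 ± 1.48 in LC-DTR vehicle ears. It fell after croton oil in LC-DTA by 0.86 ± 0.11 on the log2(TPM + 1) scale (log2 difference -0.86, limma adjusted p = 2.98e-05). In LC-DTR Nat6 was lower after croton oil too, at 27.17 to 35.7 TPM against 36.12 to 38.95 TPM under vehicle, without overlap. How reads were divided between these genes is not given in the sources used here, so the Hyal1 values are uncertain.

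Hyal2, a hyaluronidase anchored at the cell surface that cuts long chains, had 62.0, 51.2, 53.4 and 50.1 TPM in LC-DTA croton oil samples and 48.9, 40.5 and 44.4 TPM under vehicle. LC-DTR ears had 56.7, 44.0, 60.8 and 49.2 TPM after croton oil, against 45.9, 51.2 and 44.3 TPM under vehicle. Its means stayed between 44.6 and 54.2 TPM in the 4 groups, and each group overlapped the next in order of mean. The LC-DTA croton oil samples lay above the LC-DTA vehicle samples without overlap.

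The first question was what 6 h of croton oil did to these genes in each genotype. In LC-DTA ears 8 of the 9 genes rose and Hyal1 fell, where 24.2% of the 14693 genes tested rose and 34.5% fell, at an adjusted p under 0.05 in limma. Has3 rose by 3.87 ± 0.34 on the log2(TPM + 1) scale (SE, adjusted p = 2.15e-06), the 14th largest absolute difference of all genes tested. Has2 rose by 2.22 ± 0.26 (adjusted p = 1.11e-05) and Has1 by 2.12 ± 0.18 (adjusted p = 1.97e-06). Ptx3 rose by 1.99 ± 0.26, Cd44 by 1.78 ± 0.17, Tnfaip6 by 1.59 ± 0.26 and Vcan by 0.88 ± 0.16, with adjusted p of 0.000382 or less for each. Hyal1 fell by 0.47 ± 0.12 on that scale (log2 difference -0.47, adjusted p = 0.00407). Hyal2 was higher by 0.27 ± 0.11 (adjusted p = 0.0436), a call that was lost under 10 of 26 alternatives, with an adjusted p of 0.118 without LC-DTA croton oil sample 1 and 0.176 without LC-DTA vehicle sample 2. The median log2 difference of the 9 genes was 1.78, against -0.09 over all genes tested.

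In LC-DTR ears 6 of the 9 genes rose and none fell, where 22.1% of all genes tested rose and 29.5% fell. The 6 were Tnfaip6 with a log2 difference of 2.34 ± 0.26 (limma adjusted p = 1.33e-05), Has1 with 2.13 ± 0.18, Has2 with 1.80 ± 0.26, Ptx3 with 1.64 ± 0.26, Cd44 with 1.53 ± 0.17 and Has3 with 1.51 ± 0.34 (adjusted p = 0.00241). Vcan differed by 0.33 ± 0.16 (adjusted p = 0.0985), Hyal2 by 0.15 ± 0.11 (adjusted p = 0.269) and Hyal1 by -0.046 ± 0.12 (adjusted p = 0.768), and these 3 were not called. Vcan passed the threshold without LC-DTR vehicle sample 3, at 0.51 with an adjusted p of 0.0179, and under quantile normalization, at 0.46 with an adjusted p of 0.0210. The median of the 9 genes was 1.53, against -0.06 over all genes tested. For genes of low level these differences depend on the pseudocount: with 5 in place of 1, Has3 differed by 0.69, Has2 by 1.04 and Has1 by 1.05, all still called. Without LC-DTR croton oil samples 2 and 3 the same 6 genes were called, with Has3 at 2.04, Has2 at 2.16, Ptx3 at 2.03 and Cd44 at 1.86.

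The response of Has3 to croton oil was larger in LC-DTA than in LC-DTR, by 2.36 ± 0.48 on the log2(TPM + 1) scale (limma interaction, adjusted p = 0.00454). Has3 was the only one of the 9 genes called in this comparison, where 10.5% of all genes tested had a higher and 12.6% a lower response in LC-DTA. The count of 1 higher was thus near the share of all genes. The Has3 value was 1.83 (adjusted p = 0.00622) without LC-DTR croton oil samples 2 and 3 together, and it stayed called under each of the 25 alternatives. For the other 8 genes the difference of responses was not called, and the 95% intervals show what sizes the data allow. For Has1 the difference was -0.01 with an interval of -0.57 to 0.55, and for Has2 it was 0.42 with an interval of -0.35 to 1.20. The Has1 value depended on the pseudocount, at -0.45 with 0.1 and 0.30 with 5, neither of them called. Tnfaip6 stood at -0.75, with an interval of -1.53 to 0.02, at -0.36 without LC-DTR vehicle sample 2 and at -0.34 with a pseudocount of 5. Ptx3 stood at 0.35, with an interval of -0.44 to 1.15. For Vcan the difference was 0.55 (interval 0.06 to 1.04, adjusted p = 0.0942), and it was called without LC-DTR croton oil sample 1, at 0.68 with an adjusted p of 0.0264. Hyal1 differed by -0.42 (interval -0.79 to -0.06, adjusted p = 0.0845) and was called without LC-DTR croton oil sample 4, at -0.51 with an adjusted p of 0.0404. Cd44 differed by 0.25 (interval -0.26 to 0.77) and Hyal2 by 0.12 (interval -0.21 to 0.46). Without LC-DTR croton oil samples 2 and 3 the Cd44 value turned to -0.079, that of Ptx3 to -0.043, and that of Has2 was 0.061. The median of the 9 genes was 0.25, against -0.02 over all genes tested.

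**Figure D3:**
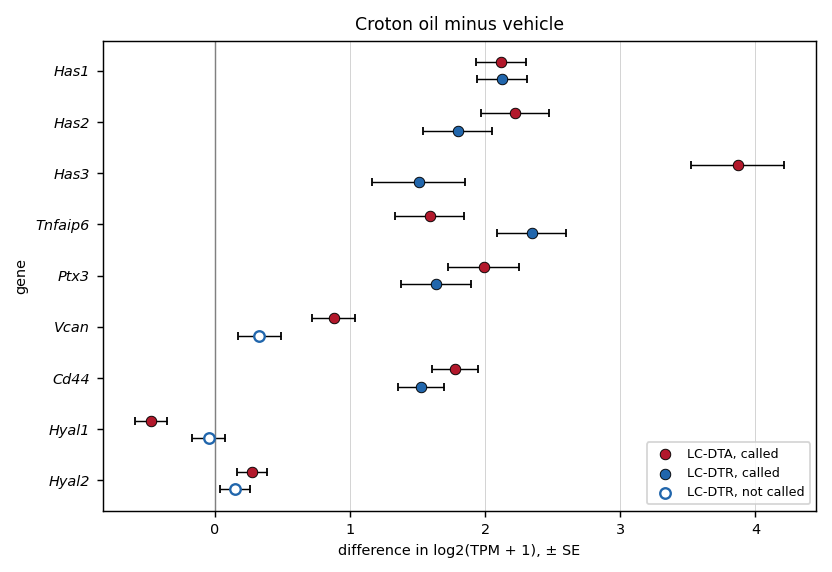
Croton oil minus vehicle for the 9 genes in LC-DTA (red) and LC-DTR (blue), as the difference in log2(TPM + 1) with ± SE bars from the limma fit. Open symbols were not called at an adjusted p under 0.05. Has3 stands at 3.87 in LC-DTA and 1.51 in LC-DTR, while Has1 stands at 2.12 in LC-DTA and 2.13 in LC-DTR. The folds of mean Has1 TPM were 5.54 in LC-DTA and 8.05 in LC-DTR.

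Markers of infiltrating and resident cells moved in the same comparisons. All 5 neutrophil markers measured rose after croton oil in both genotypes, and their summed TPM was 434.8 to 662.7 in LC-DTA croton oil, 33.4 to 64.0 in LC-DTA vehicle, 259.3 to 763.8 in LC-DTR croton oil and 25.5 to 68.4 in LC-DTR vehicle ears. Of 5 monocyte and macrophage markers, 3 rose and 1 fell in LC-DTA and none was called in LC-DTR, and for 3 of them the difference of responses was itself called higher in LC-DTA. Their summed TPM was 1205 to 1540 in LC-DTA croton oil, 643.2 to 830.4 in LC-DTA vehicle, 339.9 to 426.2 in LC-DTR croton oil and 307.2 to 489.5 in LC-DTR vehicle ears. Of 4 keratinocyte markers all 4 fell in LC-DTR, while 1 rose and 1 fell in LC-DTA, and the difference of responses was called higher for 3. Over all genes tested 24.2% rose and 34.5% fell in LC-DTA, and 22.1% rose and 29.5% fell in LC-DTR. The difference of responses was called higher for 10.5% of all genes tested. The keratinocyte counts in LC-DTA were thus near the shares of all genes. The part of these cell types in the hyaluronan gene values was not tested.

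The second question was how the genotypes compared after croton oil. There 7 of the 9 genes were higher in LC-DTA than in LC-DTR and Hyal1 was lower, where 34.3% of all genes tested were higher and 18.0% lower. Has3 differed by 3.07 ± 0.32 (limma adjusted p = 9.01e-06), the 6th largest absolute difference of all genes tested, with a mean of 45.0 ± 15.7 TPM in LC-DTA and 4.71 ± 2.41 TPM in LC-DTR (SD, n = 4 each). Ptx3 was higher by 1.71 ± 0.24, Vcan by 1.27 ± 0.15, Tnfaip6 by 1.26 ± 0.24, Has2 by 1.24 ± 0.24, Has1 by 0.90 ± 0.17 and Cd44 by 0.62 ± 0.16, with adjusted p between 1.98e-05 and 0.00448. Hyal1 differed by -0.55 ± 0.11 (adjusted p = 0.0011), and Hyal2, at 0.05 ± 0.10 (interval -0.17 to 0.26), was not called. Without LC-DTR croton oil samples 2 and 3 the same 8 genes were called, with Has3 at 2.54, Ptx3 at 1.31, Has2 at 0.87 and Cd44 at 0.29 (adjusted p = 0.0486). The median of the 9 genes was 1.24, against 0.09 over all genes tested. Of all called genes 65.6% were higher in LC-DTA with TPM as deposited, against 50.1% after median-ratio scaling. The same count of 7 higher and 1 lower was found for the 9 genes under that scaling. There 3720 of the 14693 genes tested were higher and 3702 lower.

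Under vehicle, without croton oil, 5 of the 9 genes were higher in LC-DTA than in LC-DTR and none was lower. Over all genes tested 19.1% were higher and 5.34% lower. Tnfaip6 differed by 2.01 ± 0.27 (limma adjusted p = 0.000671), the 5th largest absolute difference of all genes tested, with 26.0 ± 3.82 TPM in LC-DTA and 6.09 ± 2.80 TPM in LC-DTR (SD, n = 3 each). Ptx3 was higher by 1.36 ± 0.28 (adjusted p = 0.00416), Has1 by 0.91 ± 0.20 (adjusted p = 0.0054) and Vcan by 0.72 ± 0.17 (adjusted p = 0.00873). With a pseudocount of 5 Has1 was higher by 0.36 and Vcan by 0.39, both still called, and with 0.1 Has1 was higher by 1.43. Has2 was higher by 0.81 ± 0.27 (adjusted p = 0.0435), a call lost under 16 of 26 alternatives, among them each of the 6 fits without 1 vehicle sample, where the adjusted p was 0.0754 to 0.112. Has3 differed by 0.71 ± 0.37 (adjusted p = 0.174), Cd44 by 0.37 ± 0.18 (adjusted p = 0.152), Hyal1 by -0.12 ± 0.13 and Hyal2 by -0.08 ± 0.12, and these 4 were not called. Has3 and Cd44 were called when the vehicle groups were fitted alone, with adjusted p of 0.0396 and 0.0400. Cd44 was also called without LC-DTR croton oil samples 2 and 3, which enter this comparison only through the shared spread (adjusted p = 0.0214). The median of the 9 genes was 0.72, against 0.10 over all genes tested. Of all called genes 78.2% were higher in LC-DTA with TPM as deposited, against 54.1% after median-ratio scaling and 47.7% after quantile normalization, which put the median of all genes at -0.01. Of the 14693 genes tested, median-ratio scaling called 1811 higher and 1537 lower, and quantile normalization 1616 higher and 1772 lower. Under each of these scalings 4 of the 9 genes were called, all of them higher in LC-DTA.

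**Figure D4:**
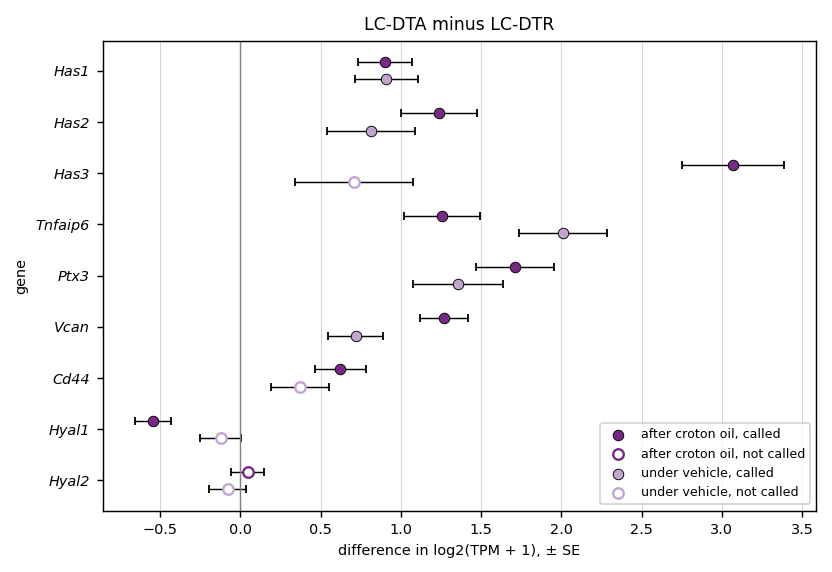
LC-DTA minus LC-DTR for the 9 genes after croton oil (dark) and under vehicle (light), as the difference in log2(TPM + 1) with ± SE bars. Open symbols were not called. Has3 stands at 3.07 after croton oil and 0.71 under vehicle, and Tnfaip6 at 1.26 after croton oil and 2.01 under vehicle.

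Fibroblast and monocyte markers differed between the genotypes too. All 5 monocyte and macrophage markers were higher in LC-DTA after croton oil, against 34.3% of all genes tested, and 3 of 5 under vehicle, against 19.1%. Of 7 fibroblast markers 6 were higher in LC-DTA after croton oil, against 34.3% of all genes tested, and 7 under vehicle, against 19.1%, with summed TPM of 4825 to 6433 in LC-DTA and 2353 to 3430 in LC-DTR after croton oil, and of 7431 to 9261 in LC-DTA and 2286 to 5183 in LC-DTR under vehicle. Col3a1, a dermal collagen gene, averaged 1266 ± 272 TPM in LC-DTA and 282 ± 98.3 TPM in LC-DTR after croton oil. Its fold of 4.49 was the largest of the 7, and the smallest was 1.02 for Dcn, where the ranges overlapped. After croton oil 3 of the 7 fibroblast markers fell and none rose in LC-DTA, and 1, Pdgfra, rose and none fell in LC-DTR. Over all genes tested 34.5% fell and 24.2% rose in LC-DTA, and 22.1% rose and 29.5% fell in LC-DTR. Markers of other cell types were called too. Of 4 mast cell markers 3 were higher in LC-DTA after croton oil and 4 under vehicle, and of 3 cartilage markers 3 and 2. Of 3 blood endothelial markers 2 were higher in each. Of 2 T cell markers 1 was lower in each, and of 3 skeletal muscle markers none was called. Over all genes tested 34.3% were higher and 18.0% lower after croton oil, and 19.1% and 5.34% under vehicle. The part of cell make-up in the genotype differences of the hyaluronan genes was not tested.

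The wider pathway was followed in 6 further lists with 47 genes, also chosen with earlier results of these data known, of which 34 passed the filter. After croton oil 15 of the 34 rose and 9 fell in LC-DTA, where 24.2% of all genes tested rose and 34.5% fell. In LC-DTR 16 rose and 3 fell, where 22.1% of all genes tested rose and 29.5% fell. LC-DTA was higher than LC-DTR for 20 and lower for 4 after croton oil, against 34.3% and 18.0% of all genes tested. The counts were 19 and 6 under both median-ratio scaling and quantile normalization. Of all 14693 genes tested, 3720 were then higher and 3702 lower under median-ratio scaling, and 3740 and 3730 under quantile normalization. Under vehicle it was higher for 19 and lower for 1, against 19.1% and 5.34% of all genes tested. These counts became 15 and 3 under median-ratio scaling, where 1811 of the 14693 genes tested were higher and 1537 lower. Under quantile normalization they became 13 and 2, where 1616 of all genes tested were higher and 1772 lower. The count of 3 lower under median-ratio scaling was thus near the share of all genes. The difference of responses was called higher for 2 and lower for 6, against 10.5% and 12.6% of all genes tested, so the share called was near that of all genes. The median log2 differences of the 34 genes were 0.10 in LC-DTA and 0.23 in LC-DTR for croton oil, 0.37 after croton oil and 0.40 under vehicle for the genotypes, and -0.12 for the difference of responses.

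Of 7 genes that supply the UDP-sugar building blocks, 5 rose after croton oil in each genotype and 1 fell in LC-DTR. Over all genes tested 24.2% rose in LC-DTA, and 22.1% rose and 29.5% fell in LC-DTR. Ugdh, which makes UDP-glucuronic acid, averaged 160 ± 27.0 TPM in LC-DTA croton oil, 89.2 ± 13.3 in LC-DTA vehicle, 107 ± 12.9 in LC-DTR croton oil and 61.0 ± 11.1 in LC-DTR vehicle ears. It rose by 0.83 ± 0.15 in LC-DTA and 0.81 ± 0.15 in LC-DTR. Uap1, which makes UDP-N-acetylglucosamine, rose by 0.71 ± 0.11 in LC-DTA and 1.13 ± 0.11 in LC-DTR. Gnpnat1, a step before it, rose by 0.84 ± 0.10 in LC-DTA and 0.61 ± 0.10 in LC-DTR. Gfpt2, an enzyme at the entry of the hexosamine pathway, differed by 0.39 ± 0.18 in LC-DTA without being called and rose by 1.19 ± 0.18 in LC-DTR, and the difference of responses was called at -0.80 ± 0.25 (limma adjusted p = 0.032). Ugp2, which makes UDP-glucose, moved against its list in LC-DTR, where it fell by 0.36 ± 0.07 (log2 difference -0.36). LC-DTA was higher for 6 of the 7 after croton oil and 4 under vehicle, against 34.3% and 19.1% of all genes tested.

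Among other genes of hyaluronan breakdown, Cemip and Tmem2 rose in both genotypes, while 2 of the 7 tested fell in LC-DTA and none in LC-DTR. Over all genes tested 24.2% rose and 34.5% fell in LC-DTA, and 22.1% rose and 29.5% fell in LC-DTR. The counts that rose, and the count that fell in LC-DTA, were thus near the shares of all genes. Cemip, which encodes a protein needed for hyaluronan breakdown in human skin fibroblasts, averaged 4.43 ± 0.814 TPM in LC-DTA croton oil, 0.888 ± 0.0724 in LC-DTA vehicle, 2.26 ± 0.570 in LC-DTR croton oil and 0.824 ± 0.152 in LC-DTR vehicle ears. Its response was larger in LC-DTA by 0.69 ± 0.19 (limma adjusted p = 0.022). Tmem2, the older symbol of the surface hyaluronidase gene Cemip2, rose by 0.56 ± 0.12 in LC-DTA and 0.76 ± 0.12 in LC-DTR. Hyal3 and Hexa, a lysosomal hexosaminidase subunit gene, fell in LC-DTA by 0.35 ± 0.14 (log2 difference -0.35) and 0.31 ± 0.11 (log2 difference -0.31). Hyal4 was lower in LC-DTA than in LC-DTR by 1.10 ± 0.13 after croton oil (log2 difference -1.10) and by 0.89 ± 0.15 under vehicle (log2 difference -0.89). Hyal4 was listed by its gene family, and whether its product cuts hyaluronan was not tested. Hexa and Gusb, 2 exoglycosidase genes of the lysosome, were higher in LC-DTA after croton oil and under vehicle. Hyal5, Hyal6 and Spam1, hyaluronidase genes of the testis, did not pass the filter.

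Of 6 other receptor genes tested, 3 rose and 2 fell after croton oil in LC-DTA, and 2 rose and 1 fell in LC-DTR. Over all genes tested 24.2% rose and 34.5% fell in LC-DTA, and 22.1% rose and 29.5% fell in LC-DTR. The share of receptor genes that fell in LC-DTA was thus near that of all genes. Lyve1, the hyaluronan receptor of lymphatic vessels and some macrophages, averaged 56.5 ± 14.9 TPM in LC-DTA croton oil, 86.9 ± 6.14 in LC-DTA vehicle, 63.9 ± 9.95 in LC-DTR croton oil and 48.2 ± 9.52 in LC-DTR vehicle ears. It fell in LC-DTA, and the difference of responses was called at -1.05 ± 0.24 (limma adjusted p = 0.0089). Of 3 lymphatic markers Prox1 and Flt4 also fell in LC-DTA, while Pdpn rose, from a mean of 44.9 to 73.6 TPM. The part of lymphatic vessels in the Lyve1 value was not tested. Hmmr, a hyaluronan-binding protein that cells make when they divide, differed by 0.11 ± 0.21 in LC-DTA, which was not called, and fell by 1.11 ± 0.21 in LC-DTR (log2 difference -1.11), with a difference of responses of 1.22 ± 0.30 (adjusted p = 0.012). Stab1, a scavenger receptor gene, fell by 0.44 ± 0.13 in LC-DTA (log2 difference -0.44) and was higher in LC-DTA than in LC-DTR by 1.21 ± 0.14 under vehicle. Tlr2, an innate immune receptor gene, rose by 0.34 ± 0.13 in LC-DTA. Layn, which encodes the receptor layilin, rose by 0.69 ± 0.16 in LC-DTA and 0.65 ± 0.16 in LC-DTR.

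Of 5 tested genes for other matrix and serum partners, 3 fell and none rose in LC-DTA, while 1 rose and 1 fell in LC-DTR. Over all genes tested 34.5% fell and 24.2% rose in LC-DTA, and 22.1% rose and 29.5% fell in LC-DTR. Hapln3, which encodes a link protein that ties proteoglycans to hyaluronan, averaged 1.12 ± 0.299 TPM in LC-DTA croton oil, 2.48 ± 0.101 in LC-DTA vehicle, 4.49 ± 0.753 in LC-DTR croton oil and 2.17 ± 0.432 in LC-DTR vehicle ears. It fell in LC-DTA and rose in LC-DTR, and the difference of responses was -1.52 ± 0.19 (limma adjusted p = 0.0003). Itih2, a heavy chain gene of inter-alpha-inhibitor, from which TSG-6 takes chains, fell by 0.48 ± 0.10 in LC-DTA (log2 difference -0.48), with a difference of responses of -0.66 ± 0.14 (adjusted p = 0.005). Itih5, a related gene, fell by 0.72 ± 0.17 in each genotype (log2 difference -0.72). Hapln1, another link protein gene, and Acan, the cartilage proteoglycan gene, were not called in any comparison. Itih1, Itih3, Itih4 and Ambp, the remaining genes of the inter-alpha-inhibitor family in the list, did not pass the filter.

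Of the 5 tested genes for proteases that cut versican, 4 rose after croton oil in each genotype. Over all genes tested 24.2% rose in LC-DTA and 22.1% in LC-DTR. Adamts4 rose by 2.99 ± 0.17 in LC-DTA and 2.98 ± 0.17 in LC-DTR, with means of 19.1 ± 3.40 TPM in LC-DTA croton oil, 1.5 ± 0.35 in LC-DTA vehicle, 10.8 ± 2.88 in LC-DTR croton oil and 0.475 ± 0.0691 in LC-DTR vehicle ears. Its mean TPM was 12.7 times higher after croton oil in LC-DTA and 22.8 times higher in LC-DTR. At such low vehicle levels the log2 differences depend on the pseudocount, so they do not show equal responses. Adamts9 rose by 1.08 ± 0.12 in LC-DTA and 1.81 ± 0.12 in LC-DTR, a difference of responses of -0.73 ± 0.18 (limma adjusted p = 0.011). Adamts1 and Adamts5 were the other 2 that rose. Adamts15 moved against the list in LC-DTA, where it fell to 4.46 ± 0.815 TPM after croton oil, against 9.84 ± 1.22 TPM under vehicle (adjusted p = 0.00021). Among the 4 genes for linkers and regulators at the cytoplasmic tail of CD44, Msn, which encodes moesin, rose by 0.87 ± 0.12 in LC-DTA and 0.67 ± 0.12 in LC-DTR. Its relatives Ezr and Rdx differed less, with Ezr higher by 0.23 ± 0.08 in LC-DTR and Rdx lower by 0.25 ± 0.07 in LC-DTA (log2 difference -0.25). Nf2, which encodes merlin, was called in neither genotype after croton oil and was higher in LC-DTA than in LC-DTR by 0.29 ± 0.05 after croton oil.

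**Figure D5:**
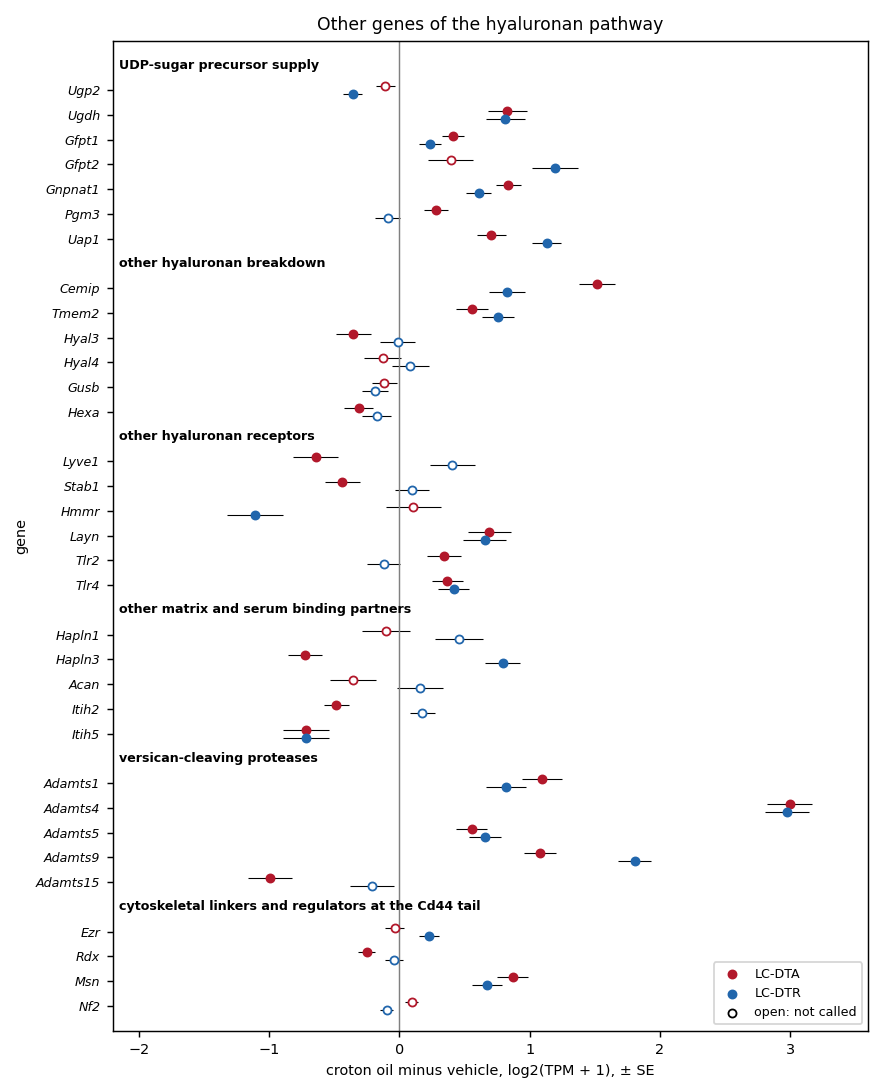
Croton oil minus vehicle for 33 of the 34 tested genes of the 6 further lists, as the difference in log2(TPM + 1) with ± SE bars, LC-DTA in red above LC-DTR in blue. Open symbols were not called. Adamts4 stands at 2.99 in LC-DTA and 2.98 in LC-DTR, and Hapln3 at -0.72 in LC-DTA and 0.79 in LC-DTR. The folds of mean Adamts4 TPM were 12.7 in LC-DTA and 22.8 in LC-DTR.

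Likeness was measured as the root mean square (RMS) difference between the centred log2(TPM + 1) values of 2 genes over the 14 samples, which share the 4 groups, so genes with the same group pattern score low. The genes most like Has1 were Hbegf (0.248), which encodes a growth factor of the EGF family, Aqp3 (0.259), a water and glycerol channel gene of keratinocytes, and Tubb6 (0.297). Those most like Has2 were Aldh1a3 (0.287), a retinoic acid synthesis gene, Osm (0.299), which encodes the cytokine oncostatin M, and Aqp3 (0.303). For Has3, Timp1 (0.443), a metalloproteinase inhibitor gene, Ifitm6 (0.458) and Cdhr1 (0.520) came nearest. Around its own mean Has3 had an RMS of 1.83, against 1.165 for Has1 and 1.176 for Has2. The measure can grow with that spread, so these distances do not show which synthase gene was matched more closely. Lilrb4 and Gp49a, 2 leukocyte receptor genes of near-identical sequence, stood among the 3 nearest of both Tnfaip6 (0.409 and 0.385) and Ptx3 (0.253 and 0.282), and since such copies can share reads their values are uncertain. Plek (0.379), a leukocyte signalling gene, was the nearest to Tnfaip6. Vcan was nearest to Lcp1 (0.117), an actin-binding gene of leukocytes, Fcer1g (0.120), an Fc receptor chain gene, and Emilin2 (0.122). Cd44 was nearest to Gda (0.152), Il4ra (0.164), an interleukin receptor gene, and Fam83a (0.165). For Hyal1 the nearest were Ctsa (0.115), a lysosomal enzyme gene, Fuom (0.125) and Tob2 (0.125), and for Hyal2 they included Ints5 (0.0655) and Apba3 (0.0749), against an RMS of 0.171 for Hyal2 itself.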

How the data were processed

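Whole ear mRNA was sequenced in 14 samples, with Qiagen RNeasy and Illumina TruSeq Stranded mRNA kits per the labels' protocols. Per the submitters' processing notes, the build was mm10 and the tools included featureCounts, Subread, HISAT2 and cutadapt, with no versions. The authors deposited TPM for 24062 rows. The sources used here give no annotation, strand setting or TPM formula. The 27 rows named as dates (0.124 to 0.145% of TPM) were left out. TPM keep no depth, so no counting intervals are given.

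With limma 3.58.1 (R 4.3.3, mean-variance trend), log2(TPM + 1) values of all 14 samples were fitted as 4 group means. The filter, at least 1 TPM in 3 or more samples, left 14693 genes. Two-sided p-values were adjusted by Benjamini-Hochberg over all genes of a comparison, and calls were made at an adjusted p under 0.05. The fit was tested on simulated data.

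The 9 genes, the pathway and marker lists and the motifs were chosen with earlier results of these data known. Named were all 9 genes, up to 4 per pathway list with the lowest p, called genes that moved against their list, and the 3 genes most like each member. Of the genes so chosen 3 are not reported here, although counts over the lists include them. The markers Ly6g, Adgre1 and Trdc matched no row and were not analysed here. Col3a1, Dcn, Pdgfra, Prox1, Flt4, Pdpn and Epcam from the marker lists, Has2os, Chtf8 and Nat6, and pathway genes outside the rule were named after their values were seen. Gene positions are from GENCODE M21 (GRCm38). Same-numbered samples were checked for pairing, with correlations of their deviations from the group means between -0.315 and 0.126 over 19 pairs, so the numbers were not treated as pairs. Alternatives were a pseudocount of 0.1 or 5, a filter of 5 TPM or none, 2 other scalings, 2 other spread estimates, a replicate block, only the compared groups, and samples left out. Tables were handled with Python 3.11.15 and pandas 2.3.3 and drawn with matplotlib 3.10.9.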

Additional observations from a re-analysis of the deposited data

Results flagged for a closer look

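The response of Has3 to croton oil differed between the genotypes by 2.36 on the log2(TPM + 1) scale (SE 0.48, limma adjusted p = 0.00454), larger in LC-DTA than in LC-DTR, and was singled out because the test of the difference itself passed the threshold. All 4 LC-DTA croton oil samples lay above every other sample. Of the 9 genes no other had a called difference of responses. Over all genes tested 10.5% had a higher and 12.6% a lower response in LC-DTA. The count of 1 higher among the 9 was thus near the share of all genes.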

How the results depend on the processing

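The 45 log2 differences of the 9 genes were recomputed under up to 26 alternatives each, which gave 1161 values. Of these 1110 kept their direction and their side of the threshold, 26 lost the call, 8 gained one and 17 changed sign, and 33 of the 45 differences did none of these. Every value that changed sign was not called, as reported and under the alternative. Hyal1 after croton oil in LC-DTR stood at 0.0095 with median-ratio scaling and between -0.12 and 0.034 with 1 sample left out. Hyal2 between the genotypes after croton oil stood at -0.047 with median-ratio scaling and between -0.035 and 0.12 with 1 sample left out. The Has1 difference of responses stood at 0.30 with a pseudocount of 5 and at -0.45 with 0.1. It was 0.038 with quantile normalization, 0.029 without LC-DTA croton oil samples 3 and 4, and between -0.21 and 0.17 with 1 sample left out. Without LC-DTR croton oil samples 2 and 3 that of Cd44 was -0.079 and that of Ptx3 was -0.043. The Has3 difference of responses ranged from 1.83 to 2.56, with adjusted p between 0.000929 and 0.0209. The cause of these changes was not tested.

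Counts of calls moved by over 1.5 times for 5 results. With 1 sample left out, genes called between the genotypes under vehicle ran from 1780 (without LC-DTR vehicle sample 2) to 3775, with 2123 without LC-DTA vehicle sample 3, against 3595. Further pathway genes called there ran from 13 (without LC-DTR vehicle sample 2) to 20. Genes with a called difference of responses ran from 2220 (without LC-DTA vehicle sample 2) to 3575, against 3389, and further pathway genes numbered 5 with the filter of 5 TPM, against 8. Of the 9 genes 2 had a called difference of responses when sample 1 or sample 4 of LC-DTR croton oil was left out, 1 when any other sample was, and 2 with a pseudocount of 5, where Vcan was the other.

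With the replicate block the genes called numbered 7733 and 6445 for croton oil in LC-DTA and LC-DTR, 7048 between the genotypes after croton oil and 2879 under vehicle, and 2660 for the difference of responses. Of the 9 genes 9, 6, 8, 4 and 1 were called in these comparisons, and Has2 under vehicle was the call lost (adjusted p = 0.0647). Of the 19 same-number pairs 2 correlated above 0.1, and no sample correlated best with its own number. No value for the difference of responses came from fitting only the compared groups, since all 4 groups enter it. TPM keep no depth, so what depth limits for Has1 and Has3, near 1 TPM under vehicle, is unknown.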
